A study of Mus musculus with 4 samples.

Results

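Secreted Wnt antagonists are extracellular proteins classed as inhibitors of Wnt signalling. Of their genes, 9 were taken by name, out of 21938 protein-coding genes in the GENCODE M21 annotation of mm10. They were Wif1, the secreted frizzled-related genes Sfrp1, Sfrp2, Sfrp4, Sfrp5 and Frzb, and 3 dickkopf genes, Dkk2, Dkk3 and Dkk4. Peaks of all 5 deposited Smad1 lists were collected where any base lay within 20 kb of the gene body, and overlapping peaks were joined, which gave 18 regions. Smad1 ChIP–seq came from GFP-Bry ES cells, a mouse line of strain label C57BL/6 with GFP in the Brachyury locus, differentiated as EBs (embryoid bodies), which were then reaggregated. They were harvested on day 4, following 24 h in the vehicle DMSO or in IWR-1 at 10 µM, which blocks Wnt signalling by stabilising Axin. Each treatment had 1 Smad1 ChIP library and 1 input library, so the calls have no replicate check and no p-value is given. EBs hold several cell types, and a call cannot be assigned to any of them.

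Peaks were called once per treatment by MACS and by QESEQ. The common DMSO list holds 10466 sites, each of them an interval of the DMSO QESEQ list of 26070 peaks that also met the DMSO MACS list of 15927 peaks. With IWR-1, QESEQ listed 16261 peaks. A second MACS list of 7815 peaks is filed under the ChIP library labelled DMSO and was taken as IWR-1 by elimination alone, so its treatment is not certain. MACS gave each peak a score, with 50 as the lowest in both lists, which ranks peaks inside a list only. A missing call says that a caller's threshold was not passed, and does not measure how far a peak's height changed. Read counts per peak were not used here, so the depth behind a call is unknown.

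Canonical Wnt ligands bind a frizzled receptor together with the co-receptor Lrp5 or Lrp6, which stabilises β-catenin and lets it act with TCF/LEF factors on DNA. Wif1 and the Sfrp proteins bind the ligand itself, the latter through a cysteine-rich domain like that of the frizzled receptors, whereas Dkk2 and Dkk4 bind the Lrp co-receptors. In gastrulating embryos such inhibitors limit Wnt activity around the primitive streak and the early heart, while Smad1 carries BMP signals to the nucleus in the same mesoderm.

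The sequences that the calls rest on are given first, as 300 bp around the centre of a peak on the plus strand of GRCm38, the assembly behind mm10. Capitals mark Smad or TCF/LEF elements, which may read as the reverse complement. They show the common sites inside Wif1 and Frzb, the QESEQ peak in Dkk4 that was called with both treatments, and the common site nearest to Dkk3, which was called in every list. The common site near Sfrp5 lies in an untranslated part of Zfyve27, so only its elements are shown, with up to 10 bases to either side.
Wif1 chr10:121034593-121034892: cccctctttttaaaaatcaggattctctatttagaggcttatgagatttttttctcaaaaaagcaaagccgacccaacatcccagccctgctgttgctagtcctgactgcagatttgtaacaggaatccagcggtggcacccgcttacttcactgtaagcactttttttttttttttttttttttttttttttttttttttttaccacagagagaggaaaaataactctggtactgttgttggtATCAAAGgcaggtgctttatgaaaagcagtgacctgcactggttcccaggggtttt
Frzb chr2:80431422-80431721: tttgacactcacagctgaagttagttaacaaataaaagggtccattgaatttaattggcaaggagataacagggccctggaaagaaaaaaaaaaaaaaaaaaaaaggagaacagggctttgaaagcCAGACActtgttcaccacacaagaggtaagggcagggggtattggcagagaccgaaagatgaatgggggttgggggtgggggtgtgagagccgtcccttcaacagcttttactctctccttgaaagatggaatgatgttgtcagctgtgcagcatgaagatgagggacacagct
Dkk4 chr8:22625477-22625776: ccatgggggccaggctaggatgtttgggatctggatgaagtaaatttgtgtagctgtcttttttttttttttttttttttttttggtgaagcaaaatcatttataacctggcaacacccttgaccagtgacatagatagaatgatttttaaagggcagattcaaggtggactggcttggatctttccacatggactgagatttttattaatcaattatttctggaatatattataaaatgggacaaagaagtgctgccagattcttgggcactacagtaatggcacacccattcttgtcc
Dkk3 upstream chr7:112181951-112182250: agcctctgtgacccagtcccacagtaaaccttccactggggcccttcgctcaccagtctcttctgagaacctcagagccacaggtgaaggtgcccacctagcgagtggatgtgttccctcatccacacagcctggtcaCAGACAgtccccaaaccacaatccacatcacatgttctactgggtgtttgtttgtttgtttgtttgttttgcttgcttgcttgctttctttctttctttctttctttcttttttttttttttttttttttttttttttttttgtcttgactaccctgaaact
Sfrp5 downstream chr19:42192312-42192338: cacctccttcAACAAAGaatgatttta
Sfrp5 downstream chr19:42192540-42192562: cgaaaaacaaAACAAAGcaaaag
The Wif1 window carried CTTTGAT, read as ATCAAAG, after a run of 41 T. The Frzb window carried CAGACA behind a run of 21 A. The Dkk4 window held none of the elements and a run of 26 T. In the Dkk3 window CAGACA preceded a run of 34 T, and the Sfrp5 stretches each held CTTTGTT, read as AACAAAG.

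With DMSO, Smad1 sites called by both callers lay near a minority of the antagonists. Wif1, Sfrp5 and Frzb had a common site within 20 kb, and Dkk2, Dkk3 and Dkk4 did not. That is 3 of 9 genes (33.3%), beside 35.1% of all protein-coding genes, so the share was close to the background. The DMSO MACS list alone gave the same 3 genes, beside 44.2% of coding genes. QESEQ alone reached further, with a DMSO peak near 7 of the 9 genes (77.8%), beside 60.2% of coding genes. Only Sfrp2 and Dkk2 had no peak of any list within 20 kb. The gene bodies of the 9 had a median length of 35.7 kb and those of all coding genes 17.4 kb, and the part of gene length in these shares was not tested.

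**Figure D1:**
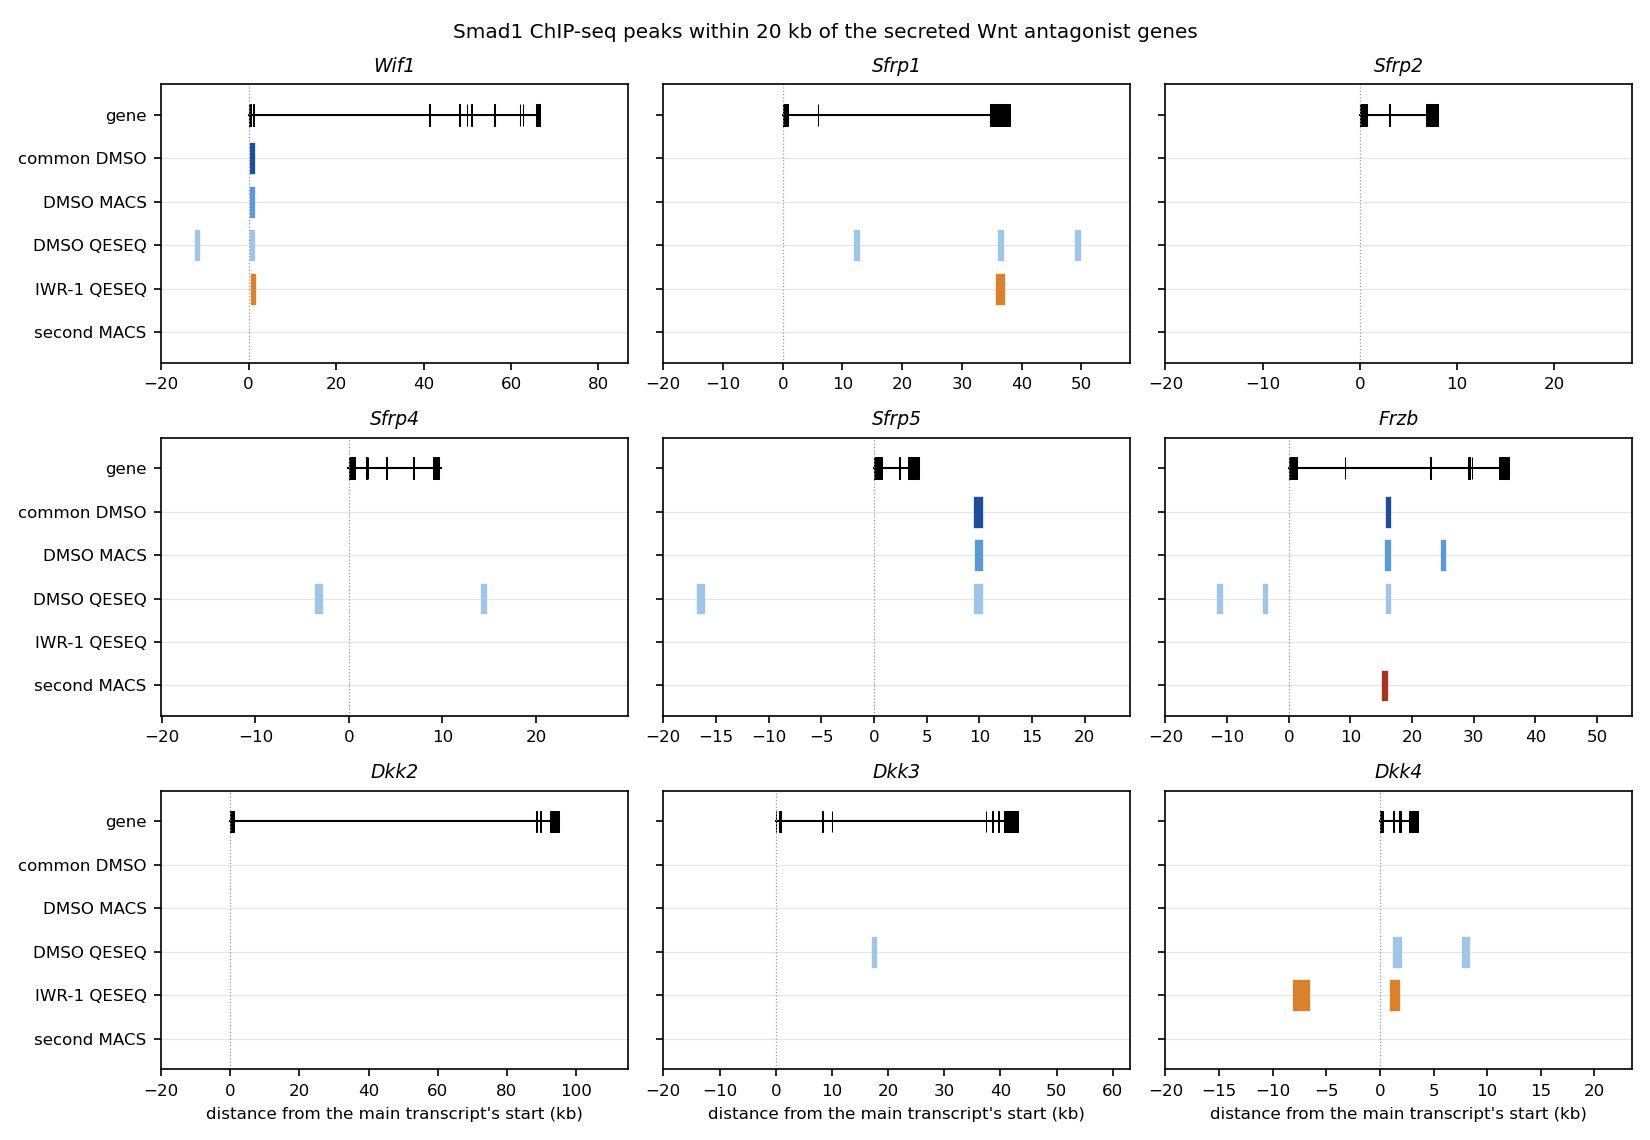
Peaks of the 5 lists around each of the 9 genes, drawn in kb from the start of the main transcript and in the direction of transcription, with exons as black boxes and a thin outline that keeps narrow peaks visible. Wif1, Sfrp5 and Frzb have a common DMSO site, and the Sfrp2 and Dkk2 panels hold no peak.

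Per length of sequence, the callers also differed. The windows around the 9 genes covered 0.664 Mb and held 3 common sites, or 4.52 per Mb, beside 5.04 per Mb over the windows of all coding genes. They held 15 DMSO QESEQ peaks, or 22.6 per Mb, beside 12.8 per Mb. Of these 15 peaks, 3 were common sites (20%), whereas 40.1% of all DMSO QESEQ peaks were. Most Smad1 calls near the antagonists came from QESEQ without MACS: 12 of the 18 regions had such a DMSO call. A DMSO call of MACS without QESEQ was found at 1 region. At 40.1%, common sites were a minority of the whole DMSO QESEQ list too. The exact binomial interval for 3 of 15 peaks, 4.33–48.1%, contains that share. The lack of MACS calls therefore does not set these genes apart.

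Wif1 encodes a ligand-binding inhibitor with a WIF domain and EGF-like repeats, and lies on chr10:121033960-121100650 on the plus strand with 10 exons. Its common site, chr10:121034557-121034928, sat in intron 1 of 9 and was centred 782 bp after the main transcript's start. MACS scored it 74.4 with DMSO, which is percentile 67.6 of that list and 65.8 among the common sites. The site was 372 bp wide, at percentile 33.1 of the common sites by width, beside a median of 423 bp. Among the 9 genes, Wif1 and Dkk4 had a DMSO QESEQ peak centred within 2 kb of their start, which 8.37% of coding genes had. No other protein-coding gene reached into the 20 kb around Wif1.

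The remaining Wif1 call with DMSO was a QESEQ peak upstream, chr10:121021960-121022414, centred 11.8 kb before the start. It was not called by MACS with DMSO, in the IWR-1 QESEQ list or in the second MACS list, and its central 300 bp held CTTTGTT. With IWR-1, QESEQ called chr10:121034627-121035138 over the common site, covering 81.2% of it. The centre of the IWR-1 QESEQ call lay 140 bp further into the gene, still in intron 1, while the median shift of such pairs over the genome was 76 bp. The edge of that call passed exon 2 into intron 2, and the DMSO MACS peak, chr10:121034480-121034979, also reached exon 2. The second MACS list had no peak nearer to the Wif1 body than 273 kb.

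The Sfrp family had 2 of its 5 genes with a common site, Sfrp5 and Frzb. Sfrp5, a small gene on the minus strand at chr19:42197971-42202252, had its site at chr19:42192109-42192716, centred 9.84 kb from the start and beyond the end of the gene by 5.25 kb. The score was 72.6 (percentile 64.6 of the DMSO MACS peaks), close to that at Wif1. The site overlapped exon 13 of 13 of Zfyve27, in its 3′ untranslated part; Zfyve27 encodes protrudin, an endoplasmic reticulum protein. It was in neither the IWR-1 QESEQ list nor the second MACS list. A DMSO QESEQ peak upstream of Sfrp5, chr19:42218492-42218954, was centred 16.5 kb before the start and had no call in the IWR-1 QESEQ or second MACS list.

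Frzb encodes Sfrp3, a Wnt-binding protein first known from cartilage, and lies at chr2:80411970-80447625 on the minus strand. It had more regions than any other of the 9 genes, 5 of the 18. Its common site, chr2:80431409-80431734, lay in intron 2 of 5, centred 16.1 kb after the start. MACS scored it 51 with DMSO, which is percentile 4.20 and close to the lowest score in that list. A MACS peak without QESEQ, chr2:80422433-80422707, lay in intron 3 with a score of 53.4 (percentile 13.9). QESEQ alone called DMSO peaks upstream at chr2:80451297-80451675 and chr2:80458664-80459094, centred 3.86 kb and 11.3 kb before the start. None of the DMSO calls at Frzb overlapped a peak of the IWR-1 QESEQ list or of the second MACS list.

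A peak of the second MACS list, chr2:80431907-80432398, was called in the same intron of Frzb with a score of 64.8, at percentile 55.4 of that list. It began 173 bp beyond the common site and overlapped no DMSO peak. By the rule of overlap, the common site of Frzb counts as uncalled and this peak as new, although their edges lie closer together than the 326 bp width of the site.

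**Figure D2:**
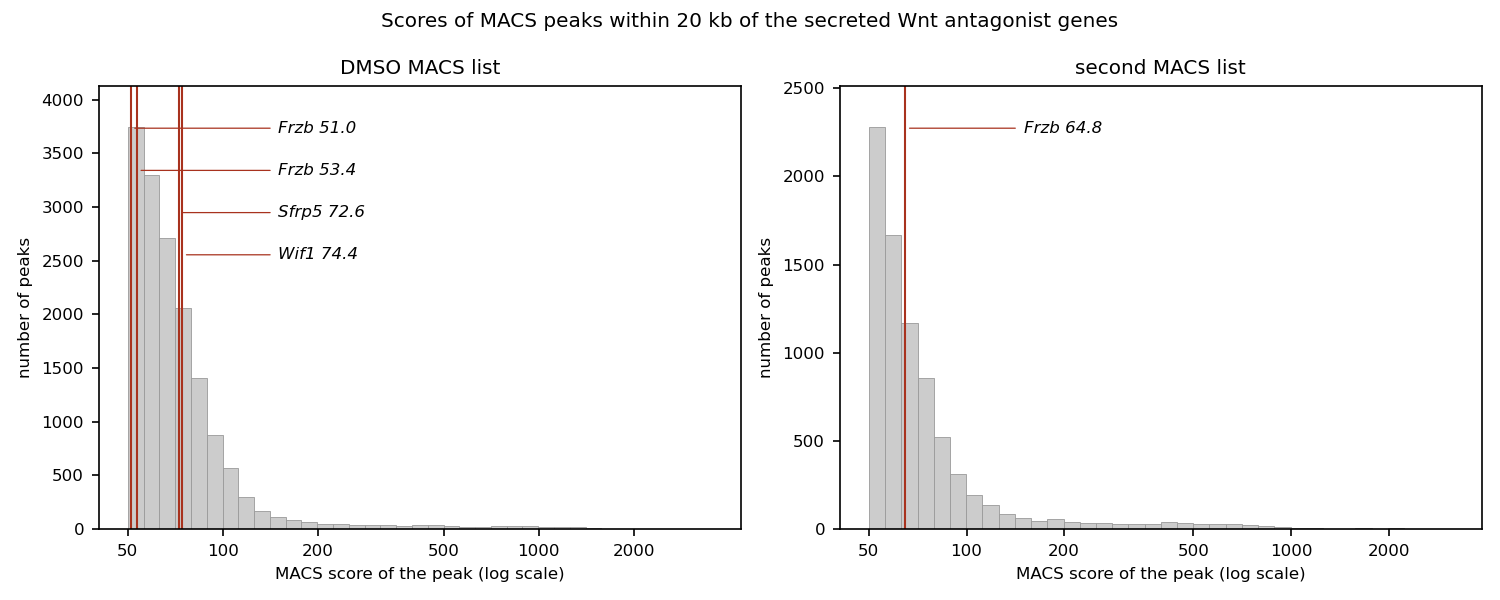
Histogram of MACS scores on a log axis for the DMSO MACS list and the second MACS list, with the number of peaks on the vertical axis and lines at the peaks within 20 kb of the antagonist genes. The Frzb peaks at 51 and 53.4 stand at the low end of the DMSO list, and Sfrp5 and Wif1 at 72.6 and 74.4 lie above its median of 65.3.

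Sfrp1, Sfrp2 and Sfrp4 had no common site in reach. Sfrp1, on the plus strand at chr8:23411502-23449632, had 3 DMSO QESEQ peaks. They lay in intron 2 of 2 (chr8:23423535-23424089), in the 3′ untranslated part of exon 3 (chr8:23447755-23448212) and 11.1 kb beyond the gene (chr8:23460682-23461073). The peak in exon 3 was covered whole by an IWR-1 QESEQ call, chr8:23447461-23448326, whose 866 bp stood at percentile 97.5 of its list by width. The nearest common site to Sfrp1 was 230 kb upstream, in intron 5 of 12 of Gpat4, a glycerol-phosphate acyltransferase gene, with a score of 51.2.

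Sfrp4, on the plus strand at chr13:19623104-19632994, had DMSO QESEQ peaks to either side. The upstream peak, chr13:19619706-19620148, was centred 3.25 kb before the Sfrp4 start but 123 bp from that of Epdr1, an ependymin-related gene, and covered part of Epdr1 exon 1. The downstream peak, chr13:19637414-19637707, was centred 14.4 kb after the start. Neither had a call in the IWR-1 QESEQ or second MACS list, and the nearest common site was 245 kb away, where Gpr141 was the closest gene. Sfrp2, on the plus strand at chr3:83766321-83774316, had its nearest common site 27.5 kb upstream, at chr3:83738635-83738863 with a score of 58.6 and no call in the IWR-1 QESEQ or second MACS list.

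Of the Dkk genes analysed, Dkk2, Dkk3 and Dkk4, none had a common site within 20 kb. Dkk4, which encodes an antagonist of the Lrp co-receptors, is a gene of 3.50 kb on the plus strand at chr8:22624043-22627547. A DMSO QESEQ peak at chr8:22625319-22625934 was centred 1.58 kb after the start and spanned coding exon 2, intron 2 and coding exon 3. The IWR-1 QESEQ call chr8:22625102-22625711 covered 63.8% of it, with the centre 220 bp nearer to the start. This shift stood at percentile 90.0 of the DMSO QESEQ peaks with an IWR-1 QESEQ call.

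Dkk4 had further QESEQ calls. With IWR-1 alone, a peak of 1280 bp at chr8:22616050-22617329 was centred 7.35 kb upstream, at percentile 99.7 of its list by width. With DMSO alone, a peak at chr8:22631831-22632278 was centred 8.01 kb after the start, inside intron 11 of 13 of Polb, the gene of DNA polymerase beta. The common site nearest to Dkk4 was 37.7 kb upstream in intron 3 of 8 of Vdac3, a gene of the outer mitochondrial membrane, with a score of 86.8 and calls in the IWR-1 QESEQ list and the second MACS list. Its centre lay 7.65 kb from the Vdac3 start.

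Dkk3, a divergent family member on the minus strand at chr7:112116017-112159057, had a DMSO QESEQ peak in intron 4 of 7, chr7:112141420-112141770, with no call in the IWR-1 QESEQ or second MACS list. Its nearest common site lay just out of reach, 22.8 kb upstream at chr7:112181830-112182370. That site scored 68.5 (percentile 57) and was called by QESEQ with IWR-1 and in the second MACS list, where it scored 62.1. Dkk2, the longest of the 9 genes with 95 kb on the plus strand at chr3:132085292-132180304, had its nearest common site 55.6 kb upstream, at chr3:132029288-132029696, with a score of 72.6 and no call in the IWR-1 QESEQ or second MACS list.

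**Figure D3:**
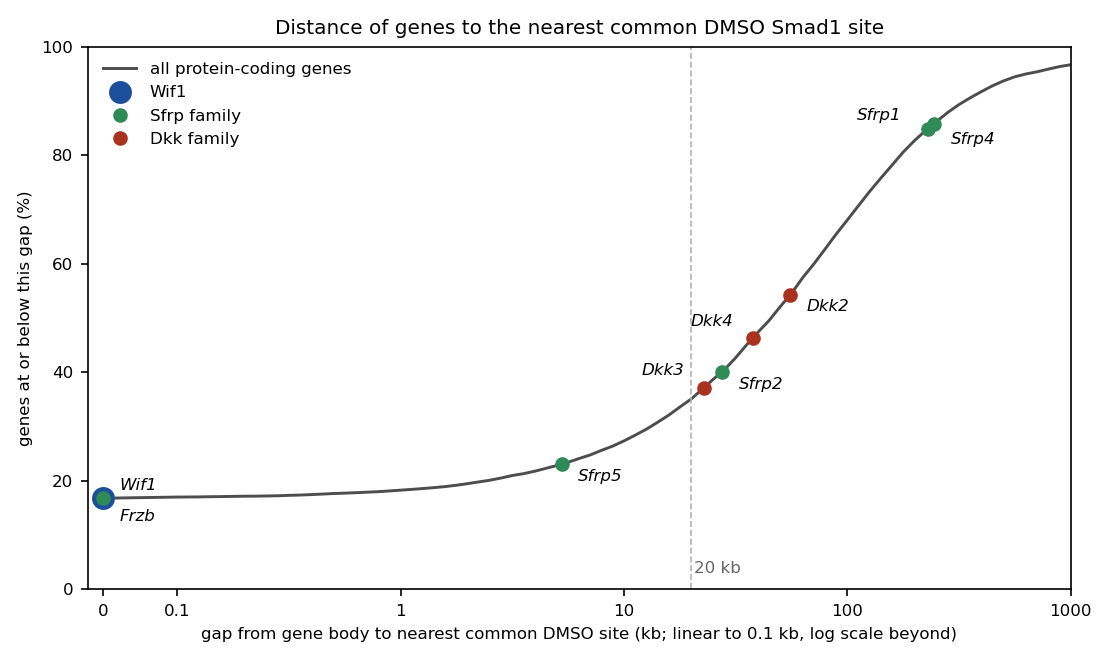
Share of protein-coding genes, in percent, whose nearest common DMSO site lies at or below a given gap from the gene body, in kb, with the antagonist genes marked by family and 20 kb by a dashed line. Wif1 and Frzb hold a site in the body, as 16.8% of coding genes do, Dkk3, Sfrp2 and Dkk4 lie between 22.8 kb and 37.7 kb, and Sfrp1 and Sfrp4 at 230 kb and 245 kb.

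In order of the gap to a common site, the genes ran from Wif1 and Frzb with a site in the body over Sfrp5, Dkk3, Sfrp2, Dkk4 and Dkk2 to Sfrp1 and Sfrp4. The median coding gene had a common site at 45.5 kb, and 6 of the 9 antagonists were nearer than that. A gap as short as that of Dkk3 was found at 37.2% of coding genes, and one as short as that of Sfrp1 at 84.9%.

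With IWR-1, fewer of the 9 genes had a call than with DMSO. QESEQ listed a peak within 20 kb of Wif1, Sfrp1 and Dkk4, which is 3 of 9 genes, beside 47.2% of coding genes. The second MACS list had a peak near Frzb only, 1 of 9 genes, beside 26.8% of coding genes. With DMSO the shares of all coding genes were higher too, at 60.2% for QESEQ and 44.2% for MACS. Of the 3 common sites, the site at Wif1 overlapped an IWR-1 QESEQ peak (33.3%, 95% exact binomial interval 0.840–90.6), beside 37.0% of all common sites. None of the 3 overlapped the second MACS list (0%, 0–70.8), beside 25.8% of all common sites. Of the 15 DMSO QESEQ peaks, 3 overlapped an IWR-1 QESEQ peak (20%, 4.33–48.1), beside 25.8% of all. The intervals describe counting error over sites alone, and each contains the share over all sites.

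DMSO and IWR-1 QESEQ calls met in Wif1 intron 1, in Sfrp1 exon 3, and in exon 2 and intron 2 of Dkk4, where only the DMSO peak reached exon 3. Each of these overlaps lay inside the gene, and 2 of the 3 are on chromosome 8. No region was called in all 5 lists. Such a call needs a common site that overlaps both the IWR-1 QESEQ list and the second MACS list. Of all common sites, 37.0% overlapped the former and 25.8% the latter, so at most 25.8% overlapped both. With 3 common sites in reach, the absence of such a call does not set these genes apart. Among the 4 IWR-1 QESEQ peaks, 1, which lay upstream of Dkk4, overlapped neither DMSO list, beside 52.9% of all IWR-1 QESEQ peaks. The peak of the second MACS list in Frzb was the other region without a DMSO call.

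Chromosome 8, which carries Sfrp1 and Dkk4, held more peaks per Mb than the median autosome in both QESEQ lists. The DMSO QESEQ list held 12.9 peaks per Mb there, with a median of 10.3 over the autosomes, and the IWR-1 QESEQ list 9.21, with a median of 6.37. The DMSO MACS list held 6.14 per Mb, equal to its median, and the common list 4.34 beside 4.15. The second MACS list held 3.38, above its median of 3.08. All 6 regions at Sfrp1 and Dkk4 were called by QESEQ alone. The part of these peak densities in those calls was not tested.

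By position, 8 of the 18 regions lay inside the antagonist's gene body, 6 upstream and 4 downstream. RefSeq promoter windows, from 250 bases before to 50 after a start, were found for 5 of the 9 genes. None of these windows met a peak of any list, beside 2.27% of all 32851 windows. At so low a share, 5 windows are too few to show a difference. The start of another coding gene was nearer than that of the antagonist at 1 region, the one at Epdr1.

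Both strands of the central 300 bp were scanned for the GC-rich Smad elements GGCGCC and GGAGCC, the palindromic Smad element GTCTAGAC, the shorter CAGACA, and the TCF/LEF elements CTTTGAT and CTTTGTT. Each was counted on its own, also where matches overlap. Among all common sites, GGCGCC was found in 1.57%, GGAGCC in 11.6%, GTCTAGAC in 0.210% and CAGACA in 21.9%. CTTTGAT was found in 5.16% and CTTTGTT in 8.07%. A match describes the letters of the window and not a bound element.

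Of the 3 common sites near the antagonists, Frzb held a Smad element, beside 32% of all common sites with any of them. Wif1 and Sfrp5 held a TCF/LEF element, beside 12.8%. No site held both kinds, which 3.54% of all common sites did. The Smad element of Frzb was CAGACA, 21 bp from the centre of its site. CTTTGAT lay 97.5 bp after the centre of the Wif1 site in the direction of transcription. At Sfrp5, CTTTGTT was found at 87.5 bp after the centre and again near the edge of the window.

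Over all 18 regions, 4 held a Smad element in the central 300 bp (22.2%), beside 33.6% of all DMSO QESEQ peaks. A TCF/LEF element was found in 3 (16.7%), beside 12.7%, and 11 regions held neither in that window. Every Smad match in these windows was CAGACA. The match at the downstream Sfrp4 peak began outside that peak, which was 294 bp wide and so narrower than the window. The GC-rich elements were found outside the central window in 2 regions: GGAGCC, in 2 copies, near an edge of the peak upstream of Sfrp4, and both GGAGCC and GGCGCC in the exonic Dkk4 peak. CAGACA also lay outside the window in the Sfrp1 intron 2 peak, the upstream Sfrp5 peak and the Dkk3 intron peak. The same held for the Frzb peak 3.86 kb upstream, the upstream Dkk4 peak and the Dkk4 peak in Polb. These last Dkk4 peaks held CTTTGAT outside the window too, so both kinds of element lay in the whole peak. The region downstream of Sfrp1 held 2 copies of CAGACA.

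Runs of A or T marked most of the regions, as they did the lists. A run of at least 7 A on either strand lay in the central 300 bp of 14 of the 18 regions, including all 3 common sites, beside 87% of all common sites and 74.4% of all DMSO QESEQ peaks. The run of 41 T in the Wif1 site was at percentile 94.3 of common sites by longest run, against a median of 25 bases. Those at Sfrp5 and Frzb were 23 T and 21 A. The middle of the Wif1 run was 32.5 bp from the centre of the site, and over all common sites with such a run the median distance of the longest was 54 bp. Regions without a run of 7 in the peak were the outer Sfrp1 peaks, the upstream Sfrp5 peak, the MACS peak in Frzb intron 3 and the Dkk4 peak in Polb. The part of such runs in the calls was not tested.

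**Figure D4:**
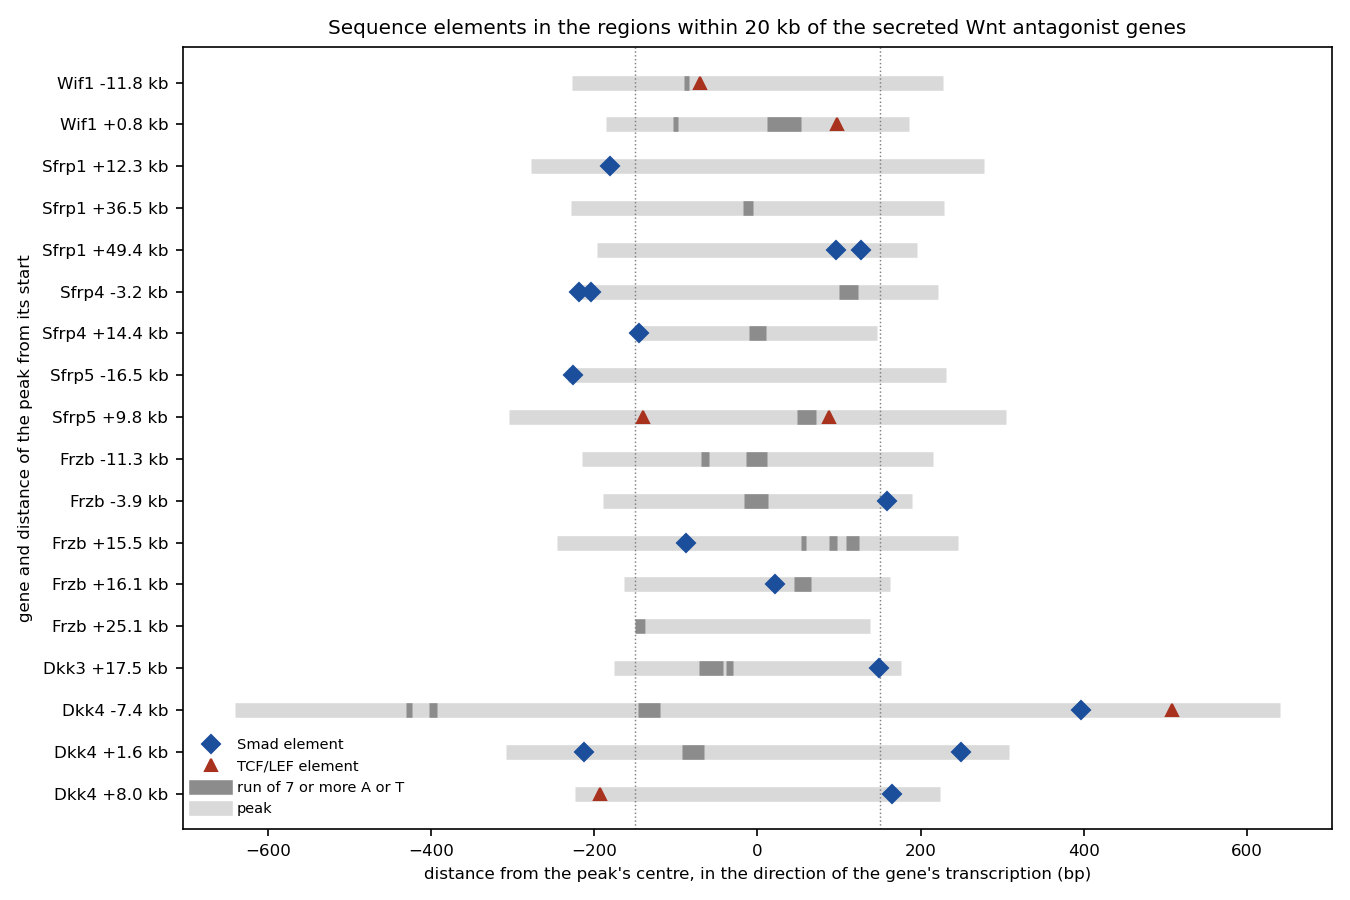
Positions of Smad elements, TCF/LEF elements and runs of at least 7 A or T in the 18 regions, in bp from the centre of the peak that stands for each region, with dotted lines at the edges of the central 300 bp and peaks as light bars. A run lies in the central 300 bp of 14 of the 18 regions, and no central window holds both kinds of element.

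Repeat-masked bases made up 34.1% of the Wif1 site, 48.2% of the Sfrp5 site and 22.4% of the Frzb site, around the median of 38.2% over common sites. The Dkk3 intron peak was the most masked, with 76.1% (percentile 88.8 of DMSO QESEQ peaks). The Dkk4 peak in Polb had no masked base and the highest GC content of the regions, 52.3% (percentile 93.9).

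Other genes of the pathway were counted by the same rule. A list of 19 other secreted or membrane Wnt modulators included Kremen, R-spondin and Lgr genes as well as Draxin, Sost and Rnf43. Of these 19, 9 had a common DMSO site within 20 kb (47.4%), and 6 an IWR-1 QESEQ peak (31.6%). The shares of all coding genes, against which these and the next lists are to be read, were 35.1% and 47.2%. The highest-scoring of their sites was at Rspo1, a secreted Wnt agonist, over its start with a score of 93.9 and no call in the IWR-1 QESEQ or second MACS list. Of the 13 common sites near these modulators, 6 overlapped an IWR-1 QESEQ peak and 2 a peak of the second MACS list. Of 19 Wnt ligands, 7 had a common site (36.8%) and 11 an IWR-1 QESEQ peak (57.9%). Their top site was 19.6 kb upstream of Wnt11, a ligand of non-canonical signalling, with a score of 1634 and calls in the IWR-1 QESEQ list and the second MACS list. Of the 7 common sites near ligands, 3 overlapped an IWR-1 QESEQ peak and 2 a second MACS peak.

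Of 15 Wnt receptors and co-receptors, 7 had a common site (46.7%) and 6 an IWR-1 QESEQ peak (40%). Lrp5, the co-receptor bound by Dkk proteins, had the top site with a score of 843, called in the IWR-1 QESEQ list and the second MACS list and lying beyond the gene's end. Of the 11 common sites near receptors, 4 overlapped an IWR-1 QESEQ peak and 3 a second MACS peak. Of 14 secreted BMP antagonists, 4 had a common site (28.6%) and 7 an IWR-1 QESEQ peak (50%). Bmper, a BMP-binding protein, had their top site with a score of 69.2 in intron 14 of 14, and none of the 6 common sites near BMP antagonists overlapped either list. Over all common sites the shares were 37.0% for IWR-1 QESEQ and 25.8% for the second MACS list. The highest score among the 9 antagonists, 74.4 at Wif1, lay above the top score of the BMP antagonists and below those of the other Wnt lists. These top scores come from unequal numbers of sites, 3 for the antagonists and from 6 to 13 for the other lists, so their order does not rank the lists. A DMSO QESEQ peak lay near 77.8% of the 9 antagonists and 78.9% of the other modulators, beside 60.2% of coding genes. For ligands, receptors and BMP antagonists the shares were 63.2%, 60% and 64.3%.

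**Figure D5:**
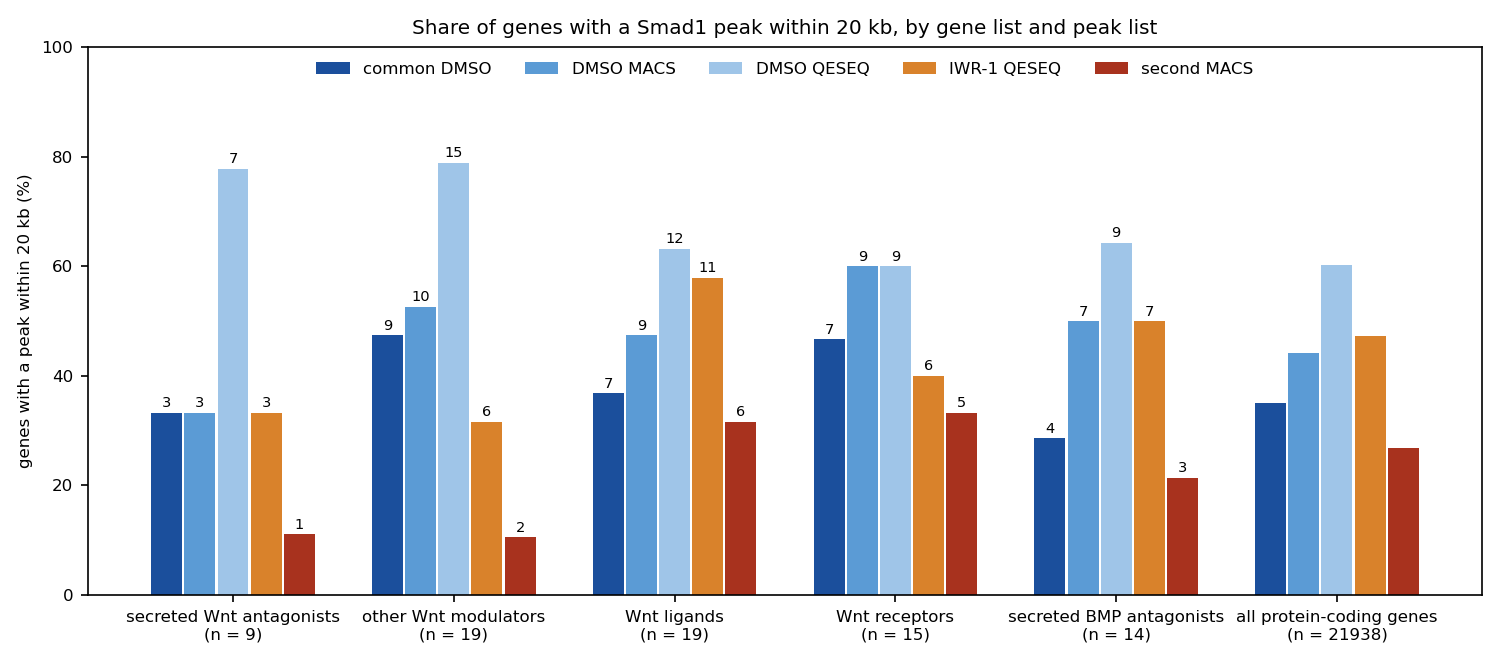
Share of genes, in percent, with a peak within 20 kb for the Wnt antagonists, 4 other gene lists and all protein-coding genes, as bars for each of the 5 peak lists with the number of genes above. The Wnt antagonists stand at 33.3% for the common list and 77.8% for DMSO QESEQ, where all coding genes stand at 35.1% and 60.2%.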

How the data were processed

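The authors aligned reads to mm10 with Bowtie2 2.1.0, discarded PCR duplicates and ran each ChIP against its input through MACS 1.0.1 and QESEQ, whose version was not given in the sources used here. The deposited lists hold positions, and the MACS lists a score per peak that the authors took from MACS. Scores were read only as ranks within a list. Units were checked against the values. Labels and lists disagree. The common and DMSO MACS lists carry the label of the DMSO input library, and the DMSO QESEQ list that of the IWR-1 input library. The DMSO MACS and QESEQ lists were identified by coordinates as the parents of the common sites. The second MACS list, labelled as the DMSO ChIP, was assigned to IWR-1 by elimination.

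Peaks within 20 kb of GENCODE M21 gene bodies were kept, overlap was counted from 1 bp, and a site's score was the highest DMSO MACS score overlapping it. The main transcript was the principal coding transcript. Sequence and repeat masking came from GRCm38. Intervals for shares are 95% exact binomial (Clopper-Pearson) and cover counting error over sites only; no tests were run and depth per peak is unknown. All 9 genes are named with every peak in reach, the nearest common site of those without one, other genes nearer to such peaks, and the gene of the top-scoring site in each further list. The members and lists were chosen with earlier results of these data known. Alternatives covered the distance, the caller, the score, the overlap and the motif window; leaving out chromosome 8 was chosen after seeing the data. The overlap, gap and motif steps were each tested on simulated data. Sequences were read with pysam 0.24.0, intervals computed with scipy 1.17.1, figures drawn with matplotlib 3.10.9, and the rest done in Python 3.11.15 with numpy 2.4.6.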

Additional observations from a re-analysis of the deposited data

How the results depend on the processing

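Of 32 alternatives, 21 stayed within 1.5 times a count or inside the main interval of a share. The 3 genes with a common DMSO site became 6 within 50 kb and 7 within 100 kb, while the share of all coding genes went from 35.1% to 52.1% and 68.1%. They became 7 with the DMSO QESEQ list alone or with either DMSO list, beside 60.2% and 64.3% of coding genes, and 0 with a score of at least 100, beside 5.21%. The 3 common sites became 9 within 50 kb, 18 within 100 kb, and 15 peaks with the DMSO QESEQ list alone. The share with an IWR-1 QESEQ call fell from 33.3% to 0% with the second MACS list or with both lists, and the cause was not tested. The common sites with a TCF/LEF element fell from 2 to 1 in the central 200 bp, where the Wif1 element, 97.5 bp from the centre, reaches past the edge of the window. Leaving out chromosome 8, chosen after seeing the data, left 3 of 7 genes with a common site and gave 10% for the DMSO QESEQ peaks with an IWR-1 QESEQ call (20% with it). That share was 27.3% within 10 kb, 28% within 50 kb and 30.8% within 100 kb. With 3 common sites, only large departures from the background could be seen.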

Other observations

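The further sites of Wif1 and Sfrp5 named here were chosen after their values were seen. Within 100 kb of the 9 genes lay 18 common DMSO sites, near 7 of the 9 genes (77.8%), beside 68.1% of all protein-coding genes at that distance. Of these, 8 overlapped an IWR-1 QESEQ peak (44.4%, 95% exact binomial interval 21.5–69.2), beside 37.0% of all common sites. The second MACS list overlapped 4 of the 18, beside 25.8% of all common sites, and these 4 were also IWR-1 QESEQ calls. A further common site near Wif1, chr10:121121279-121121797, began 20.6 kb beyond the gene's end, with a score of 69.2, CAGACA in its central 300 bp and no call in the IWR-1 QESEQ or second MACS list. Sfrp5 had the most of them, with 5. Its site at chr19:42169973-42170475, 27.5 kb beyond the gene, was centred 343 bp from the start of Zfyve27, scored 78.6 and was called in all 5 lists. Another, chr19:42144380-42145070, at 52.9 kb, scored 82.8, was called in all 5 lists and lay 2675 bp from the start of Marveld1. The other sites in both the IWR-1 QESEQ list and the second MACS list were those nearest to Dkk3 and Dkk4. In the central 300 bp, 7 of the 18 held a Smad element, beside 32% of all common sites. A TCF/LEF element was found in 2 of the 18, beside 12.8%, and these were the Wif1 and Sfrp5 sites within 20 kb. A run of at least 7 A or T lay in the central 300 bp of all 18, beside 87% of all common sites.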
